A study of Mus musculus with 6 samples.

Results

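TGF-beta and BMP signalling was described through 10 genes, chosen by name with earlier results of these data known. A probe set belonged to them when the platform annotation gave it 1 of these symbols and no other. They fell into a TGF-beta branch of 7 genes (Tgfb1, Tgfb2, Tgfb3, Tgfbr1, Tgfbr2, Tgfbr3 and Ltbp1) and a BMP branch of 3 genes (Bmp4, Grem1 and Id1). All 10 were measured, by 17 probe sets of the 28898 that carried a single symbol, among 17097 genes in all. The arrays measured RNA from mouse cell lines described as fibroblasts obtained from embryonic stem cells. There were 3 arrays labelled CD98hc KO and 3 labelled WT, with the replicate numbers 1, 3 and 5 under each label. The KO line was described as lacking CD98hc, the heavy chain that carries several amino acid transporters to the plasma membrane and is encoded by Slc3a2, and the WT line as wild type. Both lines grew in the same high-glucose medium with serum and β-mercaptoethanol. Whether either line came from a single clone, and whether the replicates were separate cultures, is not stated, and p-values therefore describe the variation among these arrays only, part of which may be technical.

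TGF-beta ligands are secreted in a latent complex, held in the matrix by latent TGF-beta binding proteins (LTBPs), and once released they bring together a type II receptor, which binds the ligand, and a type I receptor, which phosphorylates SMAD2 and SMAD3. BMPs belong to the same superfamily, use their own type I and type II receptors, signal through SMAD1, SMAD5 and SMAD9, and are held back outside the cell by antagonists such as gremlin. In fibroblasts TGF-beta is best known as an inducer of collagen and other matrix genes, and in mouse embryonic stem cells BMP4 is known to maintain the undifferentiated state together with LIF, partly through Id genes.

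The targeted gene went against the label. Slc3a2 had log2 levels of 11.65, 11.57 and 11.54 on the KO-labelled arrays, against 10.64, 10.67 and 10.51 on the WT-labelled arrays, a log2 fold change of 0.98 (SE 0.07, limma adjusted p = 0.00012) towards the KO label that was just under 2-fold. It passed 2-fold within replicates 1 and 5 (1.02), without KO replicate 5 (1.002) and without WT replicate 3 (1.01). Where its single probe set lies relative to the deleted sequence is not known, which means that this value does not check the labels, and the arrays are named by their labels throughout. Arrays correlated at 0.991 to 0.994 within a label and at 0.911 to 0.920 between labels. The labelled cell type was also checked against its markers. Of 14 fibroblast markers 8 were lower on the KO-labelled arrays and 0 higher (summed log2 level 75.2 to 77.6 in KO-labelled arrays and 108 to 115 in WT-labelled arrays; 1 higher and 9 lower at an unadjusted p under 0.05), and Fap, Lum, Pdgfra, Postn and Thy1 lay at the level of silent genes under both labels. All 13 measured pluripotent stem cell markers, Pou5f1 and Nanog among them, were higher on the KO-labelled arrays (summed log2 level 138 to 143 in KO-labelled arrays and 69.2 to 70.5 in WT-labelled arrays), as were 8 of 10 epithelial markers (73.8 to 77.3 in KO-labelled arrays and 49.4 to 50.3 in WT-labelled arrays). Pou5f1 had mean log2 levels of 11.99 on the KO-labelled and 4.76 on the WT-labelled arrays, and Nanog 10.69 and 4.16. For the KO-labelled arrays these markers go against the description as fibroblasts. These marker differences moved with the label, as did every gene called below, and their part in those results was not tested. In bulk RNA, fewer cells of a type and less RNA per cell cannot be told apart.

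Values are log2 expression after robust multi-array averaging (RMA), a difference of 1 on this scale being 2-fold. A gene was called when limma gave an adjusted p under 0.05 over all 17097 genes and a change over 2-fold, and 1 probe set, the most variable, stood for each gene. Levels of different genes are not set against each other, because probe sets differ in response. A group mean at or below 5.05, the 95th percentile of 44 olfactory receptor (Olfr) probe sets, was taken as the level of silent genes, and a fold change against such a mean is a low estimate. With 3 arrays under each label an exact permutation test cannot go below 0.1, so the calls rest on the variance model fitted across all genes.

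Of the 7 TGF-beta branch genes, 4 fell on the KO-labelled arrays and 0 rose (0 higher at an unadjusted p under 0.05 also, with limma). Those that fell were Tgfb3, Tgfbr2, Tgfbr3 and Ltbp1: 1 ligand, the type II receptor and the co-receptor that bind it, and a protein that stores it. Over all genes, 10.1% were called lower and 9.27% higher, 19.4% in all. The median log2 fold change of the branch was -3.28, against 0.02 over all genes, and each of the 4 fell by over 8-fold, as did 1.32% of all genes. Because the genes were chosen with earlier results known, these shares stand beside them as description and not as a test. Of the 3 BMP branch genes, 1 fell (Grem1) and 0 rose (2 higher at an unadjusted p under 0.05), with a median log2 fold change of 0.89. Id1, a target of BMP signalling, had an adjusted p under 0.05 but changed by less than 2-fold. The groups did not overlap for 6 of the 10 genes, 4 in the TGF-beta branch and 2 in the BMP branch, where 51.5% of all genes had groups that did not overlap. With no fold limit the adjusted p alone was passed by 4 TGF-beta branch genes, all lower, and by Grem1 and Id1, against 41.9% of all genes (19.2% lower and 22.6% higher).

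**Figure D1:**
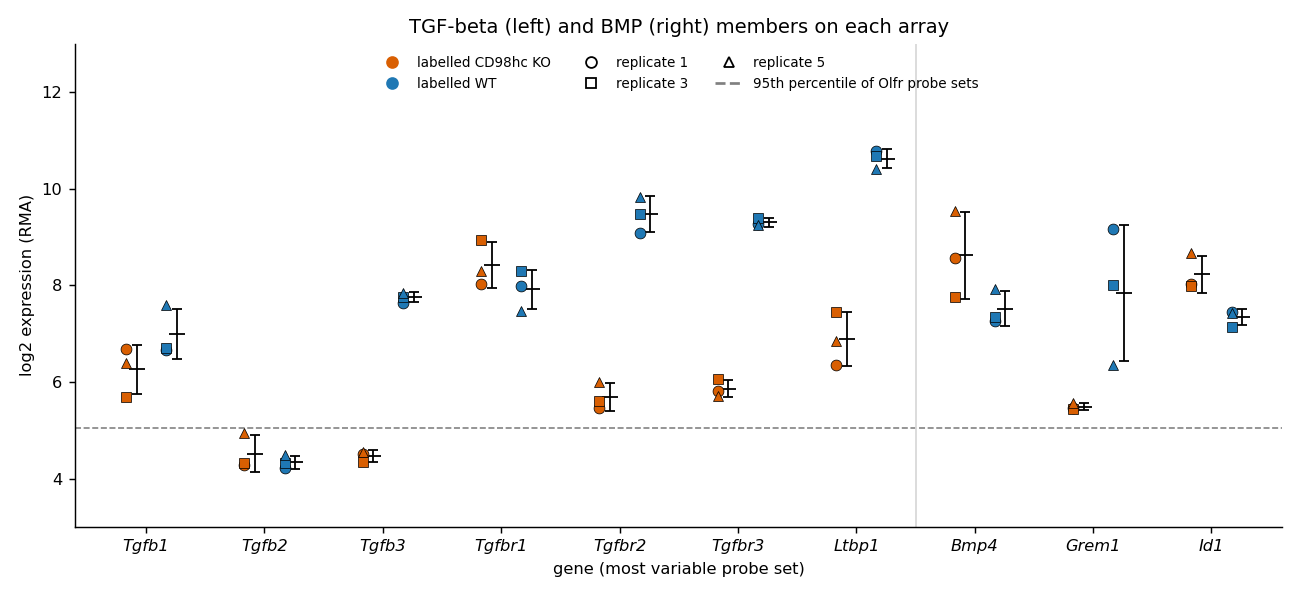
Log2 expression (RMA, vertical axis) of the 10 genes (horizontal axis, TGF-beta branch left of the line and BMP branch right of it) on each array, KO-labelled in orange and WT-labelled in blue, with symbol shape giving the replicate number, bars the mean ± SD of 3 arrays and the dashed line the 95th percentile of Olfr probe sets. Tgfb3, Tgfbr2, Tgfbr3 and Ltbp1 form separate groups with the KO-labelled arrays lower, and Grem1 is spread from 6.36 to 9.17 on the WT-labelled arrays.

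Promoter sequence was available for 7 of the 10 genes in the RefSeq table (mouse build GRCm38.p6). It is shown for those genes among them that fell, Tgfbr2, Ltbp1 and Grem1. Each stretch holds the 150 bases before a start site, 5′ to 3′ on the strand of the gene. Whether these genes share any control was not tested. Capitals mark the SMAD box, CAGAC or its reverse complement GTCTG, and the GC element GGCGCC, a motif read the same on both strands that has been described in BMP-responsive genes. The motifs were searched in 250 bases before each start on both strands, and in these genes no match of one motif overlapped a match of the other. The Tgfbr2 stretch is chr9:116175364-116175513 on the minus strand, the first Ltbp1 start chr17:75005379-75005528 on the plus strand, the second Ltbp1 start chr17:75178631-75178780 on the plus strand, and the Grem1 stretch chr2:113758649-113758798 on the minus strand.
Tgfbr2: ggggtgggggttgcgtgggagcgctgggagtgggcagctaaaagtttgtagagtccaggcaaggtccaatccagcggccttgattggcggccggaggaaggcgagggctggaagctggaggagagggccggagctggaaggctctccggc
Ltbp1, start 1: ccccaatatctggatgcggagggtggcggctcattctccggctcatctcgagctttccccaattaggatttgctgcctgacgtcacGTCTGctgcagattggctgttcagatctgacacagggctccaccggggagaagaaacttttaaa
Ltbp1, start 2: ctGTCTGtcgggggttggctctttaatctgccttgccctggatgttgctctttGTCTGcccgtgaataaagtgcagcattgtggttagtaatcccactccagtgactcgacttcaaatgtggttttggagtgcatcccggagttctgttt
Grem1: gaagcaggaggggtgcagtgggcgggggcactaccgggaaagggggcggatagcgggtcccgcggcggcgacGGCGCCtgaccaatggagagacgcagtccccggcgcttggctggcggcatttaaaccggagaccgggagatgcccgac
The first Ltbp1 start held 1 SMAD box, 64 bases before the start, and the second held 2, at 148 and 97 bases. Grem1 held a GC element 78 bases before its start and a SMAD box at 219 bases, and Tgfbr2 a SMAD box at 160 bases, both of these SMAD boxes lying upstream of the stretch printed. A SMAD box was present in 42.2% of all 32851 promoters of this length and a GC element in 9.59%. A match describes letters only. Of the genes that did not fall, Tgfb2 held 2 SMAD boxes and the second Tgfbr1 start held 1, the first Tgfbr1 start held a GC element, and Tgfb1 and Bmp4 held neither motif in this window.

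Of the 3 TGF-beta ligands 1 was called. Tgfb3, the isoform with a known role in palate fusion, had log2 levels of 4.51, 4.34 and 4.56 on the KO-labelled arrays, against 7.64, 7.76 and 7.85 on the WT-labelled arrays. All KO-labelled arrays lay at the level of silent genes and all WT-labelled arrays well above it, with a gap many times the spread within either label. Its log2 fold change was -3.28 (SE 0.09, limma adjusted p = 2.57e-06), the smallest adjusted p of the 10 genes, and at 9.73-fold lower this is a low estimate. Tgfb1, the most widely expressed isoform, had 6.69, 5.70 and 6.39 on the KO-labelled arrays, against 6.67, 6.71 and 7.59 on the WT-labelled arrays. KO replicate 1 was about as high as WT replicates 1 and 3, so the groups overlapped, and the log2 fold change of -0.73 (SE 0.34, 95% interval -1.55 to 0.09, limma adjusted p = 0.14) did not pass. The size of that difference moved with single arrays, being -0.45 without KO replicate 3 and -0.43 without WT replicate 5. Tgfb2, the isoform that depends most on betaglycan for receptor binding, had 4.27, 4.32 and 4.95 on the KO-labelled arrays, against 4.21, 4.31 and 4.48 on the WT-labelled arrays. Both means lay at the level of silent genes, so no fold change is read.

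The receptors that bind ligand were lower on the KO-labelled arrays while the signalling type I receptor was not. Tgfbr2, the type II receptor, had 5.46, 5.61 and 6.01 on the KO-labelled arrays, against 9.09, 9.49 and 9.83 on the WT-labelled arrays. The groups stood far apart, with KO-labelled means just above the level of silent genes, and the log2 fold change was -3.78 (SE 0.22, limma adjusted p = 4.3e-05), or 13.7-fold lower. Tgfbr3, which encodes the co-receptor betaglycan that presents ligand to the type II receptor, had 5.81, 6.06 and 5.72 on the KO-labelled arrays, against 9.27, 9.41 and 9.24 on the WT-labelled arrays. Spread within each label was small beside the gap, giving a log2 fold change of -3.44 (SE 0.11, limma adjusted p = 3.72e-06), or 10.9-fold lower. Tgfbr1, the type I receptor kinase, had 8.03, 8.94 and 8.30 on the KO-labelled arrays, against 7.98, 8.29 and 7.48 on the WT-labelled arrays. The groups overlapped, WT replicate 3 lying above KO replicate 1, and the log2 fold change of 0.51 (SE 0.29, 95% interval -0.19 to 1.21, limma adjusted p = 0.226) did not pass. To compare the changes of the 2 signalling receptors, the Tgfbr2 level minus the Tgfbr1 level was taken within each array. This contrast was -2.57, -3.33 and -2.29 for the KO-labelled arrays, against 1.11, 1.20 and 2.36 for the WT-labelled arrays. Only its change between labels is read. This contrast fell by 4.29 with no overlap, and its exact two-sided permutation p was 0.1, the smallest that 3 arrays against 3 allow (also 0.1 after adjustment over 4 such contrasts, all chosen after the values were seen).

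Ltbp1, which binds latent TGF-beta and anchors it to matrix, had 6.34, 7.46 and 6.85 on the KO-labelled arrays, against 10.79, 10.68 and 10.41 on the WT-labelled arrays. KO-labelled arrays varied by about 1 log2 unit among themselves, far less than the gap to the WT-labelled arrays. The log2 fold change was -3.74 (SE 0.28, limma adjusted p = 0.000108), or 13.4-fold lower.

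Several of these genes had more than one probe set. Both Tgfbr3 probe sets fell, with log2 fold changes of -3.44 for 1425620_PM_at and -3.27 for 1433795_PM_at (limma adjusted p = 9.74e-05 for 1433795_PM_at, over all 45037 probe sets), where 13.8% of all probe sets were called. For Tgfbr2, log2 fold changes were -3.78 for 1426397_PM_at and -2.38 for 1425444_PM_a_at (5.34, 5.53 and 5.99 on the KO-labelled arrays, against 7.82, 7.48 and 8.70 on the WT-labelled arrays), and 1422019_PM_at lay at the level of silent genes under both labels. Ltbp1 likewise rested on 1 probe set, 1448870_PM_at, since 1419786_PM_at and 1447547_PM_at lay at the level of silent genes under both labels. Averaging a gene's probe sets, dim ones included, therefore gave log2 fold changes of -2.05 for Tgfbr2 and -1.48 for Ltbp1, both still called. For Tgfbr1, a second probe set, 1420893_PM_a_at, had 8.08, 8.43 and 8.10 on the KO-labelled arrays, against 7.76, 7.70 and 7.22 on the WT-labelled arrays. Here the groups did not overlap, and the log2 fold change was 0.64 (SE 0.17, limma adjusted p = 0.0295), under 2-fold. The remaining Tgfbr1 probe set, 1420894_PM_at, had group means of 5.19 for the KO-labelled and 5.06 for the WT-labelled arrays. Tgfb1, Tgfb2, Tgfb3, Bmp4, Grem1 and Id1 had 1 probe set each.

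**Figure D2:**
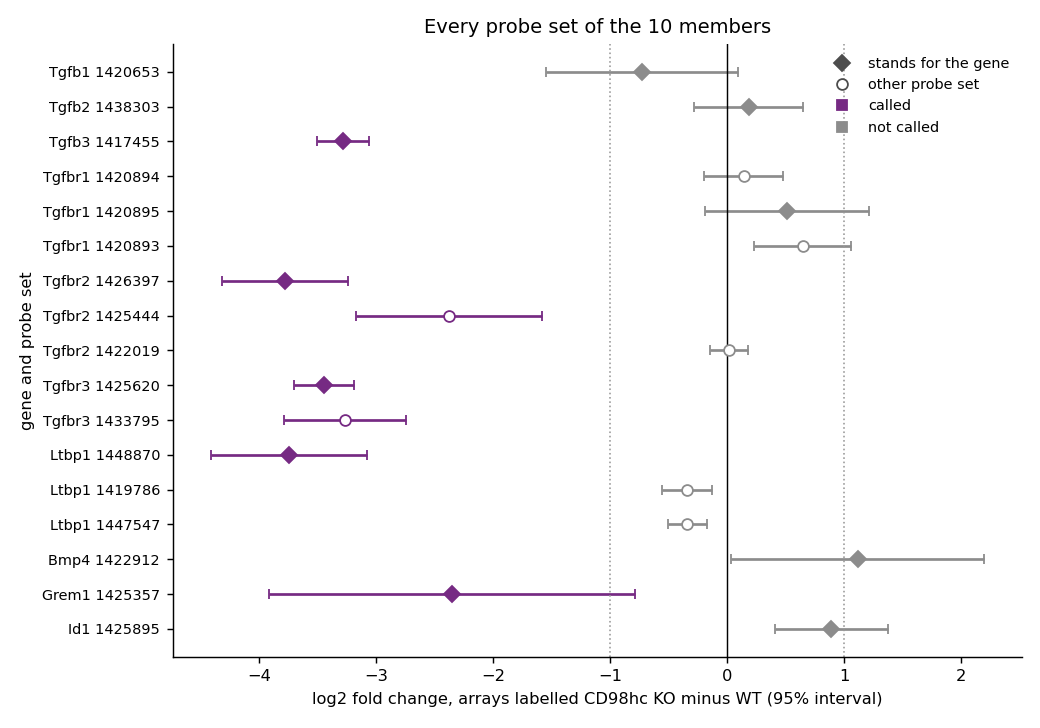
Log2 fold change, KO-labelled minus WT-labelled arrays (horizontal axis, 95% interval), for each of the 17 probe sets of the 10 genes (vertical axis), with diamonds for the probe set that stands for its gene, circles for the others, purple where called and grey where not, and dotted lines at 2-fold. The called probe sets all lie left of the lower 2-fold line, including both for Tgfbr3. The uncalled Tgfbr2 probe set lies near 0. The uncalled Ltbp1 probe sets, at the level of silent genes under both labels, lie between 0 and that line (-0.35 and -0.34).

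In the BMP branch the antagonist fell, and neither the ligand nor the target was called. Bmp4, the ligand, had 8.58, 7.75 and 9.55 on the KO-labelled arrays, against 7.26, 7.35 and 7.93 on the WT-labelled arrays. KO replicates 1 and 5 lay above all WT-labelled arrays, but KO replicate 3 lay below WT replicate 5, so the groups overlapped. The log2 fold change of 1.11 (SE 0.45, 95% interval 0.04 to 2.19, limma adjusted p = 0.0945) did not pass, and without KO replicate 3 it was 1.55 and passed (limma adjusted p = 0.0165). Grem1, which encodes the BMP antagonist gremlin, had 5.46, 5.44 and 5.57 on the KO-labelled arrays, against 9.17, 8.01 and 6.36 on the WT-labelled arrays. KO-labelled arrays were alike and just above the level of silent genes, WT-labelled arrays ranged widely, and the groups did not overlap. Grem1 fell by 2.36 on the log2 scale (SE 0.65, limma adjusted p = 0.0268), or 5.12-fold. That call was weak: it was lost without KO replicate 1, 3 or 5 or without WT replicate 3 (limma adjusted p = 0.071, 0.0653, 0.0659 and 0.0835), and the log2 fold change was -1.69 without WT replicate 1 and -3.10 without WT replicate 5. Id1, an inhibitor of basic helix-loop-helix factors that BMP signalling induces, had 8.02, 7.99 and 8.67 on the KO-labelled arrays, against 7.45, 7.15 and 7.43 on the WT-labelled arrays. Every KO-labelled array lay above every WT-labelled array, and the log2 fold change of 0.89 (SE 0.20, 95% interval 0.40 to 1.37, limma adjusted p = 0.0124) corresponded to 1.85-fold, short of a call. Without KO replicate 3 it was 1.005 on the log2 scale and passed (limma adjusted p = 0.0141).

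Hybridisation control probes set the replicate 3 arrays apart, with a mean log2 level of 8.69 on KO replicate 3 and 8.73 on WT replicate 3, against 9.81 to 9.94 on the other 4 arrays. The 4 TGF-beta branch calls held within replicates 1 and 5 and with a covariate for this split. Within replicates 1 and 5 Grem1 differed by -2.25 (limma adjusted p = 0.167), losing its call. Of the genes described below, Zeb1 (limma adjusted p = 0.0694), Fstl1 (limma adjusted p = 0.158) and Id3 (log2 fold change -0.95) also lost theirs in that setting.

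The other genes of storage, activation and reception were read from lists of pathway genes. Of 10 measured genes that store or activate latent TGF-beta, 3 fell (Ltbp3, Itgav and Furin) and 1 rose (Ltbp4), with a median log2 fold change of -0.37. Over all genes 10.1% were called lower and 9.27% higher, the shares beside which every list count below stands. Ltbp3, a second LTBP, had 7.38, 6.88 and 7.66 on the KO-labelled arrays, against 10.20, 10.18 and 10.91 on the WT-labelled arrays, and fell by 3.12 (SE 0.27). Ltbp4, another LTBP, ran the other way with 11.10, 10.27 and 10.64 on the KO-labelled arrays, against 7.21, 6.89 and 7.75 on the WT-labelled arrays, a log2 fold change of 3.38 (SE 0.28, limma adjusted p = 0.000179). The LTBP genes therefore did not move as one: Ltbp1 and Ltbp3 fell, Ltbp4 rose, and Ltbp2 lay at the level of silent genes under both labels. Itgav, the integrin subunit that pulls on the latent complex, fell by 2.68 on the log2 scale, and Furin, the protease that cleaves the TGF-beta precursor, fell by 1.67.

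Among 9 measured co-receptors and receptor regulators, 4 fell (Ldlrad4, Smurf1, Smurf2 and Zfyve9) and 1 rose (Bambi), with a median log2 fold change of -0.30. The shares of all genes were 10.1% called lower and 9.27% called higher. Bambi, a pseudoreceptor without a kinase that blocks TGF-beta and BMP receptors, had 8.29, 7.82 and 8.03 on the KO-labelled arrays, against 4.75, 4.86 and 4.82 on the WT-labelled arrays, or 9.42-fold higher, a low estimate because the WT-labelled mean lay at the level of silent genes. Zfyve9, the SMAD anchor SARA, fell by 1.40 (log2 fold change -0.66 and not called with probe sets averaged), and the log2 fold changes of the ubiquitin ligases Smurf2 and Smurf1 were -1.90 and -1.25. Fkbp1a and Strap were not called and differed by -0.30 and 0.07 on the log2 scale, and Strap had the opposite sign after subtraction of array medians.

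The type II receptors differed from one another by label. Of 9 measured BMP receptors and co-receptors, 3 fell (Acvr1, Bmpr2 and Rgmb) and 2 rose (Acvr2b and Hjv), with a median log2 fold change of -0.32, where 10.1% of all genes were called lower and 9.27% higher. Bmpr2, the type II receptor dedicated to BMPs, had 7.58, 7.70 and 7.35 on the KO-labelled arrays, against 8.86, 9.51 and 9.25 on the WT-labelled arrays, and fell by 1.67 (SE 0.18). Acvr2b, which serves activins and BMPs, had 8.46, 9.06 and 8.87 on the KO-labelled arrays, against 4.86, 5.26 and 5.26 on the WT-labelled arrays, a log2 fold change of 3.67 (SE 0.18, limma adjusted p = 2.32e-05). Acvr2a, its paralogue, differed by -0.33, short of a call. The co-receptors Hjv and Rgmb had log2 fold changes of 1.95 and -1.84, but the brightest Rgmb probe set gave -0.56 and was not called. Of the type I receptors, Acvr1 fell by 2.26, and the probe sets of Bmpr1a and Bmpr1b lay at the level of silent genes under both labels. Bmpr1a was read from 1445413_PM_at alone, and a dim probe set cannot show whether the gene itself is silent.

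**Figure D3:**
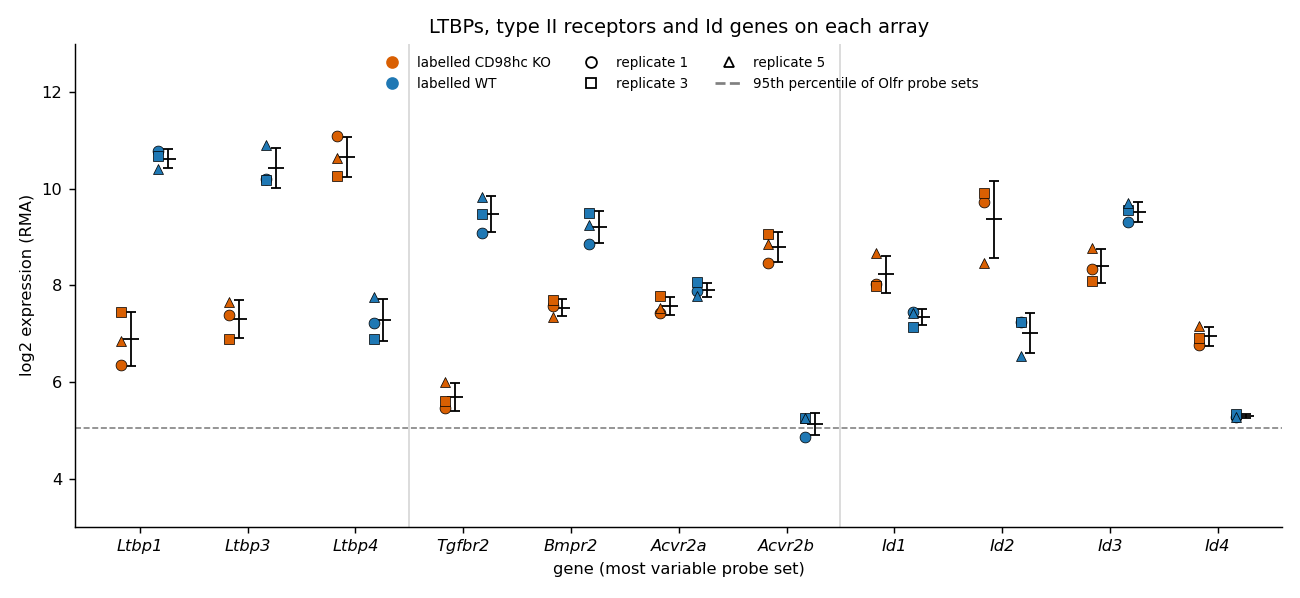
Log2 expression (RMA, vertical axis) of LTBP genes, type II receptors and Id genes (horizontal axis, 3 blocks) on each array, KO-labelled in orange and WT-labelled in blue, with symbol shape giving the replicate number and bars the mean ± SD of 3 arrays. Within each block some genes are lower on the KO-labelled arrays (Ltbp1, Ltbp3, Tgfbr2, Bmpr2, Id3) and others higher (Ltbp4, Acvr2b, Id2, Id4).

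Of the 8 SMAD genes, Smad5 and Smad3 fell with log2 fold changes of -1.94 and -1.60, Smad7, an inhibitory SMAD, rose by 1.33, and the other 5 were not called (list median -0.12). For this list and the next, 10.1% of all genes were called lower and 9.27% higher. Smad4, the shared partner of both branches, differed by -0.36 and Smad1 by -0.22. Of 8 measured SMAD co-repressors and co-factors, Foxh1, the partner of SMAD2 in nodal and activin responses, rose by 2.58 and the co-repressor Tgif1 by 1.14, while the repressors Zeb2 and Zeb1 fell, with log2 fold changes of -1.68 and -1.40. With probe sets averaged Zeb2 had -0.67 and was not called.

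Of 11 measured early TGF-beta target genes, 4 fell (Cdkn2b, Junb, Ldlrad4 and Snai1) and 2 rose (Smad7 and Tgif1), with a median log2 fold change of -0.97. Beside this list and the next stand 10.1% of all genes called lower and 9.27% called higher. Cdkn2b, the cyclin-dependent kinase inhibitor p15, had 5.79, 5.69 and 5.29 on the KO-labelled arrays, against 9.63, 9.56 and 10.07 on the WT-labelled arrays, and fell by 4.17 (SE 0.19). Of 12 measured myofibroblast and matrix targets, 6 fell (Col3a1, Col1a1, Lox, Timp1, Col1a2 and Nox4) and 0 rose (2 higher and 8 lower at an unadjusted p under 0.05, with limma), with a median of -0.88. Col3a1 had 4.36, 4.13 and 4.77 on the KO-labelled arrays, against 10.52, 11.49 and 11.92 on the WT-labelled arrays, and fell by 6.89. Col1a1 fell by 5.72, and the collagen crosslinking enzyme Lox fell by 4.38. Not all targets were called. Fn1, fibronectin, differed by -0.68 (limma unadjusted p = 0.0319, adjusted p = 0.0711). Fn1 was lower in all 15 alternatives (log2 fold change -0.86 to -0.44, limma adjusted p = 0.00312 to 0.244) but was not called in any. Acta2, the smooth muscle actin of myofibroblasts, differed by -0.15, a sign that turned when its probe sets were averaged. Col1a1, Col1a2 and Col3a1 are also fibroblast markers, and the marker differences given above moved with the same label.

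Of 10 measured BMP ligands other than Bmp4, 0 were called (3 higher and 0 lower at an unadjusted p under 0.05, with limma), 6 lay at the level of silent genes under both labels, and log2 fold changes ran from -0.09 to 0.55. Of 14 measured BMP antagonists other than Grem1, 2 rose (Fst and Fstl1) and 2 fell (Crim1 and Chrdl1), with a median of -0.0041; 9.27% of all genes were called higher and 10.1% lower, so this count lay near the background. With probe sets averaged Chrdl1 had a log2 fold change of -0.76 and was not called. Fst, follistatin, had 7.25, 6.43 and 7.28 on the KO-labelled arrays, against 5.57, 5.71 and 5.67 on the WT-labelled arrays, a log2 fold change of 1.33 (SE 0.23). Fstl1 had 10.16, 9.65 and 9.81 on the KO-labelled arrays, against 8.00, 8.38 and 9.47 on the WT-labelled arrays. Its call was lost when any single array other than WT replicate 5 was left out (limma adjusted p = 0.0564 to 0.11). A brighter Fstl1 probe set, 1448259_PM_at, had a log2 fold change of 0.97 and was not called.

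Of 14 measured BMP target genes other than Id1, 4 rose (Bambi, Id2, Id4 and Smad7) and 1 fell (Id3), with a median log2 fold change of 0.07. The shares of all genes were 9.27% called higher and 10.1% called lower. Id2 had 9.73, 9.91 and 8.46 on the KO-labelled arrays, against 7.25, 7.25 and 6.55 on the WT-labelled arrays, a log2 fold change of 2.35 (SE 0.41). Id4 rose by 1.65, and with probe sets averaged it had 0.98, just short of a call. Id3 had 8.35, 8.08 and 8.78 on the KO-labelled arrays, against 9.31, 9.56 and 9.72 on the WT-labelled arrays, and fell by 1.13 (SE 0.19), a change that was just under 2-fold without KO replicate 3 (log2 fold change -0.97). Id1 minus Id3 within each array was -0.32, -0.09 and -0.11 for the KO-labelled arrays, against -1.86, -2.41 and -2.29 for the WT-labelled arrays, and the contrast rose by 2.01 with no overlap (exact two-sided permutation p = 0.1, the smallest possible). The corresponding contrasts of Tgfb3 minus Tgfb1 and of Ltbp1 minus Ltbp4 changed by -2.55 and -7.13, with the same p. All these pairs were chosen after the values were seen. Their p therefore adds no support beyond the changes of the single genes.

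**Figure D4:**
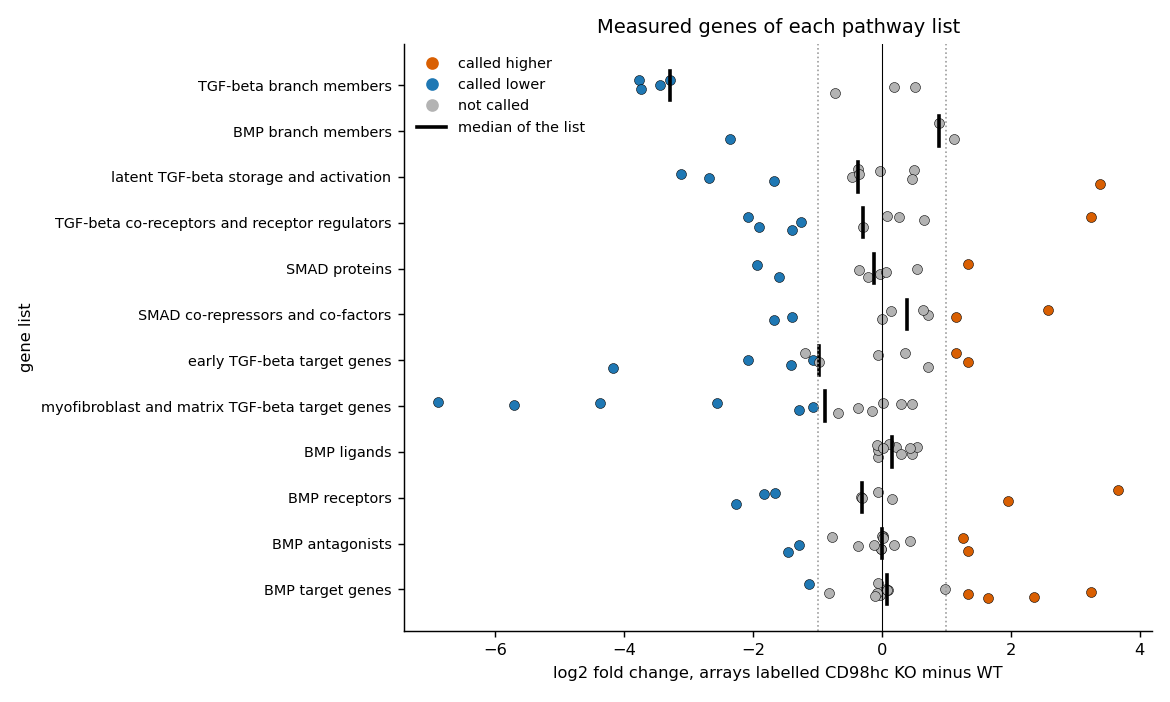
Log2 fold change, KO-labelled minus WT-labelled arrays (horizontal axis), of each measured gene (points) in the pathway gene lists (vertical axis), coloured orange where called higher, blue where called lower and grey where not called, with black bars at list medians and dotted lines at 2-fold. Myofibroblast and matrix targets hold 6 genes called lower and 0 higher, whereas BMP ligands other than Bmp4 hold 0 called.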

How the data were processed

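Processed log2 values of 6 Affymetrix HT-430 mouse arrays were used, which the authors had deposited after background correction, normalisation and summarisation with RMA (version not given in the sources used here). Amplified cDNA had been hybridised. Of 45141 probe sets 104 were controls, 28898 carried 1 gene symbol, 551 several and 15588 none; those with 1 symbol, updated by gene ID (28689 matched), gave 17097 genes. For genes with several, the probe set of largest SD across all 6 arrays was used, a rule that favours probe sets that differ. KO-labelled and WT-labelled arrays were compared with limma 3.58.1 (R 4.3.3; Benjamini-Hochberg adjustment over all genes; adjusted p under 0.05 and over 2-fold). The study's model held the scan batch, which was not assigned to arrays in the sources used here, and it was left out here; a covariate for the replicate 3 arrays, which the hybridisation controls set apart, was an alternative. Probe set tests were adjusted over 45037 probe sets that were not controls. Contrasts within arrays used exact permutation. The number of arrays limits the precision.

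Members and gene lists were chosen with earlier results of these data known. Named were all 10 members with each of their probe sets, and Slc3a2. In each list the rule took up to 5 called genes with the largest change and up to 2 uncalled genes with the highest level. Taken by this rule but left undescribed were the uncalled Emilin1, Dcn, Ski, Skil, Klf10, Crebbp, Bmp6, Gdf2, Rgma, Twsg1, Dand5, Gata2 and Hey1. They remain among the named genes counted below. Acvr2a, Ltbp2, Bmpr1a and Bmpr1b, and genes counted by name, were added after values were seen. Lists share genes (Smad7, Ldlrad4, Bambi, Tgif1 and others). Listed genes with no probe set of a single symbol were not analysed here. Of the marker lists not given in the report, 0 of 8 endothelial markers were called (4 higher at an unadjusted p under 0.05) and 0 of 5 smooth muscle markers (1 higher), 1 of 7 leukocyte markers (Laptm5) was higher, and 3 of 8 primitive endoderm markers (Afp, Dab2 and Gata6) were lower. On simulated data for this comparison over 17097 genes, limma called 89 of 100 genes changed by 1.5 log2 units, 99 of 100 changed by 3, and 1 unchanged gene. The simulated errors were independent and held no batch, and far fewer genes were changed than were called here. These rates therefore do not carry over to the real arrays. Alternatives changed the normalisation, probe set rule, dim-gene filter, variance model, fold limit, blocks and arrays. Promoters came from RefSeq (GRCm38.p6). Figures were drawn with matplotlib 3.10.9.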

Additional observations from a re-analysis of the deposited data

How the results depend on the processing

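The 4 TGF-beta branch calls held in all 16 alternatives fitted to all genes, and 6 probe sets of the branch were called when each was counted. Over all genes the calls ran from 2680 (probe sets averaged) to 3396 (without KO replicate 3), and numbered 7163 with no fold limit. The BMP branch count of 1 was less settled: it was 2 with no fold limit, 0 within replicates 1 and 5, and 0 to 2 with 1 array left out. Shared replicate numbers did not pair the arrays (correlations of same-numbered deviations 0.057, 0.558 and 0.152); with the replicate number as a block 3326 genes and 2 BMP branch genes were called, Bmp4 then passing (limma adjusted p = 0.024). Of 149 alternative values for the 10 genes, 140 kept their direction and side of the threshold, 5 lost the call (all Grem1), 3 gained one (Bmp4 in 2, Id1 in 1) and 1 turned sign (Tgfb2, -0.037 without KO replicate 5, with 1 array left out -0.037 to 0.30). Of 840 values for 56 other named genes, 811 kept both, 15 lost the call, 5 gained one and 9 turned sign, all in genes not called: Strap (-0.0058 with array medians subtracted, -0.037 to 0.15 with 1 array left out), Crebbp (-0.028 with quantile normalisation, -0.076 with array medians subtracted, -0.044 to 0.047 with 1 array left out), Klf10 (-0.18 to 0.094 with 1 array left out) and Acta2 (0.019 with probe sets averaged). Why these values moved was not tested. Tgfb2 has no value once dim genes are removed. Signal at the level of silent genes limits the fold changes of Tgfb3, Bambi, Lox and Col3a1, among others, and gives no fold change for Tgfb2.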
